A study of Rattus norvegicus and Mus musculus with 251 samples.

Results

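The levels of 9 genes that mark projection neurons of the cerebral cortex and its layers were followed in mouse prefrontal cortex (PFC) and nucleus accumbens (NAc): Slc17a7, Neurod6, Neurod2, Cux2, Rorb, Fezf2, Tbr1, Bcl11b and Foxp2. They were taken by symbol from a raw count table of 46078 genes, as genes in common use as markers of these neurons, and each of the 9 symbols matched 1 gene. The mice, C57BL/6J throughout (C57BL6J in the labels), had saline or morphine to drink, and the treatment labels are Sal, Chronic mor, Mor + 24h and Mor + 2W, here called saline, chronic, 24 h and 2 weeks. PFC gave 30 libraries (6 saline, 8 chronic, 9 at 24 h, 7 at 2 weeks) and NAc gave 32 (7, 8, 9 and 8), with females and males in every group. The labels give no genetic modification, dose or age, and nothing says whether a library number is 1 animal. P-values therefore measure the spread between libraries. Each library came from a punch of 0.5 mm, so all cells of the punch contributed RNA, and in such bulk tissue fewer cells of a type and less RNA per cell cannot be told apart.

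Projection neurons of the cortex are glutamatergic cells that send axons out of their own area. They lie in layers: upper-layer neurons mostly connect cortical areas with each other, while deep-layer neurons project to the thalamus, striatum, brain stem and spinal cord. The transcription factors that set these identities during development mostly stay on in the adult. The NAc is part of the ventral striatum, whose principal cells are GABAergic spiny projection neurons that lack the cortical glutamate programme. They do express Bcl11b, and many also Foxp2, so that those genes mark different neurons in the 2 regions.

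Library totals ran from 5182601 to 43963295 counts with a median of 31687509. The smallest was PFC number 10 (female, 2 weeks), in which 10563 genes had a count and 21.1% of its reads were unaligned. The next smallest library had 22387525. The labels call the cells neurons, but glial genes were abundant in the punches. Mbp, a protein of myelin, had a median CPM (counts scaled to library size with TMM factors) of 2757 in PFC and 3520 in NAc. Against their sex labels, both libraries of number 27, labelled female, lacked the RNA of the inactive X chromosome and held a Y-linked gene: Xist was at 0 CPM in PFC and 1.03 CPM in NAc, and Ddx3y at 52.5 and 77.5 CPM. Without number 27, female libraries had at least 60.4 CPM of Xist and at most 0.8 CPM of Ddx3y. NAc number 28, labelled male, held 18.2 CPM of Xist beside 75.03 CPM of Ddx3y. Leaving out number 27 changed no call of a member in any contrast.

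Several of these genes have close relatives expressed in the same tissue, which matters for counts of short reads. The longest coding stretches that 4 of them share with a relative are shown here 5′ to 3′ from the GENCODE M21 transcripts (GRCm38), with the shared run in capitals and 15 bases of flank in lower case.
Slc17a7 (chr7:45168881-45168931, plus strand): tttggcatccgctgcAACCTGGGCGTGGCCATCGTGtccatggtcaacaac
Slc17a6 (chr7:51625447-51625497, plus strand): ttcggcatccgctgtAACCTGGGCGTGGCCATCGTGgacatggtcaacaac
Neurod2 (chr11:98327801-98327855, minus strand): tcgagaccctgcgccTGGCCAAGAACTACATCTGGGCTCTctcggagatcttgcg
Neurod1 (chr2:79454565-79454619, minus strand): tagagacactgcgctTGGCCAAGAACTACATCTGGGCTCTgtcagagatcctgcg
Bcl11b (chr12:107915446-107915498, minus strand): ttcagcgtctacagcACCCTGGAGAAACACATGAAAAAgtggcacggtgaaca
Bcl11a (chr11:24165083-24165135, plus strand): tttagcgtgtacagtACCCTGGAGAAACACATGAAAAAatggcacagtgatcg
Foxp2 (chr6:15377942-15378006, plus strand): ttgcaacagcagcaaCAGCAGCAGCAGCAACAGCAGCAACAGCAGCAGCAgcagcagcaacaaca
Foxp1 (chr6:99075930-99075994, minus strand): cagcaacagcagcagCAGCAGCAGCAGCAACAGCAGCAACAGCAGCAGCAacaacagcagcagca
The shared run was 21 bases for the vesicular glutamate transporters Slc17a7 and Slc17a6, 25 for Neurod2 and Neurod1, 23 for Bcl11b and Bcl11a, and 35 for Foxp2 and Foxp1, in which it is a run of glutamine codons. It was 23 for Cux2 with Cux1 and for Fezf2 with Fezf1, 20 for Rorb with Rora, 14 for Tbr1 with Eomes and 11 for Neurod6 with Neurod2. All were shorter than 1 read of 75 bases. Of the 75-base words of the members' transcripts, 0 occurred in a transcript of another gene for 8 members. For Foxp2, 5 of 16826 words (0.03%) occurred in Gm46378.

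The genes lie on 8 autosomes and all 9 are protein-coding (GRCm38). Slc17a7 (ENSMUSG00000070570, chr7:45163949-45176142) holds the microRNA gene Mir7055. Foxp2 (ENSMUSG00000029563, chr6:14901349-15441977) holds Gm25470 on its own strand. Cux2 (ENSMUSG00000042589, chr5:121856366-122050102) overlaps Gm3970 and Gm15637 on the other strand. Whether the counting used strand is not given in the sources used here, so its count is uncertain to that extent. The other 6 overlap 0 annotated genes: Neurod6 (ENSMUSG00000037984, chr6:55677822-55681263), Neurod2 (ENSMUSG00000038255, chr11:98325415-98329648), Rorb (ENSMUSG00000036192, chr19:18930605-19111196), Fezf2 (ENSMUSG00000021743, chr14:12342094-12348189), Tbr1 (ENSMUSG00000035033, chr2:61802930-61814114) and Bcl11b (ENSMUSG00000048251, chr12:107910403-108003602). All 9 passed the filter on low counts in PFC, in NAc and in both together.

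The first comparison set PFC against NAc, over all 62 libraries and averaged over stages and sexes. All 9 genes differed (edgeR quasi-likelihood test, Benjamini-Hochberg adjusted p under 0.05, here said to be called), 7 higher in PFC and 2 higher in NAc. The regions differed in much of the transcriptome: of 19266 genes tested, 66.2% were called, 29.7% higher in PFC and 36.5% higher in NAc. The median log2 difference was 4.29 over the members and -0.07 over all genes tested. In a stricter count, all 7 genes that were higher in PFC had their lowest PFC library above their highest NAc library. Over all genes tested the 2 regions' libraries did not overlap for 4.3%, and for 2.73% with PFC higher.

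Slc17a7 encodes VGLUT1, which loads glutamate into the synaptic vesicles of cortical projection neurons. It ran from 1426 to 3688 CPM in PFC (median 2256) and from 3.04 to 595 CPM in NAc (median 9.09). The NAc median was 0.403% of that of PFC. Its log2 difference was 7.09 ± 0.38 (SE, edgeR adjusted p = 4.156e-23). It was 8.01 ± 0.35 in the saline libraries alone, a fold difference over 1.5 times as large. The NAc maximum was 1 library, number 24, and without that number the difference was 7.57 ± 0.23.

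Neurod2 and Neurod6 are basic helix-loop-helix factors that are switched on in cortical glutamatergic neurons as they leave the cell cycle. Neurod6 ran from 68.3 to 113.5 CPM in PFC and from 0 to 6.05 CPM in NAc, with medians of 86.5 and 0.499 CPM. One NAc library had no count of it. Neurod2 ran from 81.7 to 154.8 CPM in PFC and from 0.032 to 33.5 CPM in NAc, with medians of 106.2 and 0.613 CPM. For both the NAc median was 0.577% of the PFC median. The log2 differences were 7.09 ± 0.25 for Neurod6 (adjusted p = 5.706e-31) and 6.80 ± 0.32 for Neurod2 (adjusted p = 3.2e-25), and 7.76 and 7.47 in the saline libraries alone. These were the factors that stayed most even over PFC punches, with coefficients of variation of 12.7% for Neurod6 and 14.55% for Neurod2.

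The upper-layer genes separated the regions much less. Cux2, a homeodomain factor of layers 2 to 4, ran from 85.5 to 245 CPM in PFC (median 145.02) and from 25.7 to 42.4 CPM in NAc (median 35.8), a log2 difference of 2.08 ± 0.07 (SE, adjusted p = 1.041e-32). Rorb, a nuclear receptor best known from layer 4, ran from 17.8 to 54.1 CPM in PFC (median 29.6) and from 8.47 to 15.5 CPM in NAc (median 11.6). Its log2 difference was 1.40 ± 0.08 (SE, adjusted p = 9.985e-22). The NAc thus held 24.7% of the PFC median of Cux2 and 39.2% of that of Rorb. Both varied little among NAc punches, with coefficients of variation of 10.1% and 14.5%, against 325% for Slc17a7. The value of Slc17a7 was drawn up by number 24, at 595 CPM where the next highest library had 67.6 CPM.

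Among the deep-layer genes, Fezf2, a zinc finger factor that specifies subcerebral projection neurons, ran from 38.2 to 73.7 CPM in PFC (median 58.5) and from 0.22 to 9.43 CPM in NAc (median 1.29). The log2 difference was 5.17 ± 0.20 (SE, adjusted p = 1.931e-29). Tbr1, a T-box factor of layer 6 neurons that project to the thalamus, ran from 74.9 to 239 CPM in PFC (median 170) and from 0.347 to 25.4 CPM in NAc (median 8.15). Its log2 difference was 4.29 ± 0.25 (SE, adjusted p = 9.492e-22). The NAc median was 2.2% of the PFC median for Fezf2 and 4.79% for Tbr1.

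Bcl11b and Foxp2 went the other way. Bcl11b (CTIP2), which marks layer 5 neurons with axons to the brain stem and spinal cord, as well as striatal projection neurons, ran from 32.3 to 103.5 CPM in PFC (median 64.8) and from 30.3 to 351 CPM in NAc (median 186). Its log2 difference was -1.56 ± 0.15 (SE, adjusted p = 5.884e-13). Foxp2, a forkhead factor of layer 6 and striatum, ran from 3.9 to 25.1 CPM in PFC (median 10.6) and from 13.9 to 101.3 CPM in NAc (median 58.7). Its log2 difference was -2.38 ± 0.17 (SE, adjusted p = 2.853e-18). For each of them, 4 of 32 NAc libraries lay below the highest PFC library.

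Per length of exons, the order of the members differed between the regions. In PFC the medians, as CPM per kilobase of exons, were 418 for Slc17a7, 40.2 for Neurod6, 33.8 for Neurod2, 30.996 for Tbr1, 19.2 for Fezf2, 14.4 for Cux2, 7.99 for Bcl11b, 2.67 for Rorb and 0.649 for Foxp2. Slc17a7 stood above Neurod6, and Rorb above Foxp2, with no overlap of their libraries. The ranges of the other neighbours overlapped. Neurod6 was above Neurod2 in 25 of 30 libraries and Neurod2 above Tbr1 in 21 of 30. In NAc, Bcl11b was first at 22.9, followed by Foxp2 at 3.59, Cux2 at 3.55, Slc17a7 at 1.69, Tbr1 at 1.48, Rorb at 1.05, Fezf2 at 0.423, Neurod6 at 0.232 and Neurod2 at 0.195. There the ranges of all neighbours overlapped. Foxp2 was above Cux2 in 14 of 32 NAc libraries and Neurod6 above Neurod2 in 17 of 32, so neither pair had a settled order.

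**Figure D1:**
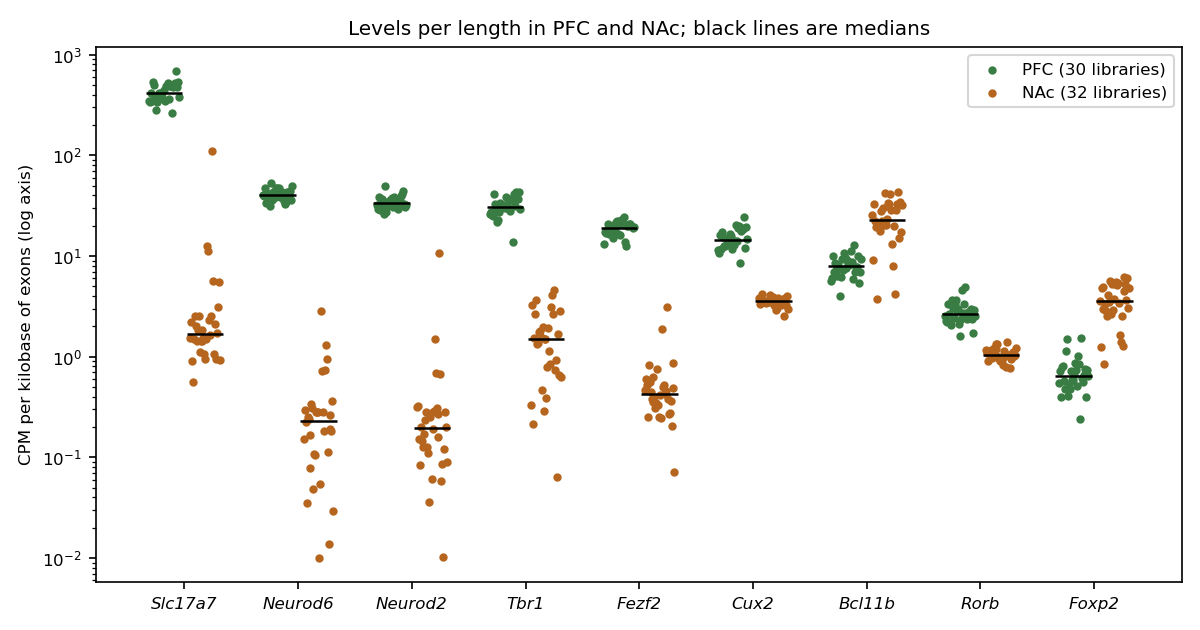
Level of each gene as CPM per kilobase of exons on a log axis, in 30 PFC and 32 NAc libraries; each point is a library, black lines are medians, and the 1 NAc library with no Neurod6 count is drawn at the bottom of the axis. Slc17a7, Neurod6, Neurod2, Tbr1, Fezf2, Cux2 and Rorb show no overlap of the regions, while Bcl11b and Foxp2 lie higher in NAc, with 4 NAc libraries each below the highest PFC library.

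The members were read beside 26 other genes of cortical projection neurons. Of 8 genes found in many layers, 8 were called and all were higher in PFC, with a median log2 difference of 4.01 against -0.07 over all genes tested. They included Emx1, a dorsal forebrain factor (log2 difference 7.001 ± 0.36), and Slc30a3, which loads zinc into synaptic vesicles (5.39 ± 0.34). Genes ascribed to single layer groups were mixed. Of 7 upper-layer genes, 5 were higher in PFC and 2 lower. Scnn1a, a layer 4 gene, had a log2 difference of 3.12 ± 0.16 and Otof one of -2.12 ± 0.10. Of 11 deep-layer genes, 5 were higher in PFC, 5 lower and 1 was not called. Ccn2 and Cplx3, genes of the deepest layer, had differences of 3.27 ± 0.13 and 3.43 ± 0.25, and Syt6 one of -2.01 ± 0.14.

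Of 12 genes of striatal projection neurons, 12 were lower in PFC. Their summed level ran from 191.45 to 343 CPM in PFC and from 464 to 8316.5 CPM in NAc. In PFC the largest parts of the sum were Ppp1r1b (DARPP-32), with a median of 96.7 CPM, and Penk, with 44.95 CPM. Isl1, a factor of striatal neurons of the direct pathway, had a count of 0 in all 30 PFC libraries and ran from 7.07 to 28.1 CPM in NAc. Isl1 and the summed level thus separated all 62 libraries by their region label. Of the markers of other cells, 2 of 7 interneuron and GABA genes were higher in PFC and 5 lower, 2 of 3 claustrum genes higher and 1 lower, 3 of 3 astrocyte and 3 of 3 endothelial genes higher, 3 of 3 oligodendrocyte and 3 of 3 microglia genes lower, 1 of 2 subcortical glutamatergic genes lower and 1 not called, and 1 of 3 choroid plexus genes higher, 1 lower and 1 not called.

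The next comparisons asked whether morphine or its withdrawal changed the layer genes within PFC. In edgeR 0 of 9 members were called under chronic morphine, 0 at 24 h and 0 at 2 weeks, where 0.417%, 0.0779% and 0.00557% of 17966 genes were called. At an unadjusted p under 0.05 there were 0 members in each contrast, and 1422, 541 and 904 genes in all. DESeq2 also called 0 members in each. Log2 changes ran from -0.04 (Neurod6) to 0.26 (Foxp2) under chronic morphine, from 0.02 (Neurod2) to 0.24 (Rorb) at 24 h, and from -0.15 (Slc17a7) to 0.25 (Foxp2) at 2 weeks. The members' medians were 0.174, 0.172 and -0.0003, against 0.009, 0.013 and -0.045 over all genes tested.

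Slc17a7 ran from 1835 to 2874 CPM in saline PFC (median 2066), from 1426 to 3688 under chronic morphine (median 2687), from 1866 to 2854 at 24 h (median 2395) and from 1520 to 2271 at 2 weeks (median 2127). The 4 ranges overlapped. The 95% interval of its change was -0.10 to 0.46 under chronic morphine, -0.19 to 0.35 at 24 h and -0.43 to 0.14 at 2 weeks (log2). Fezf2 at 24 h had the lowest unadjusted p of the members in these contrasts, and Cux2 under chronic morphine the lowest adjusted p, at 0.788. Fezf2 ran from 39.7 to 64.1 CPM in saline (median 52.2) and from 42.2 to 73.7 at 24 h (median 64.03), a log2 difference of 0.23 ± 0.12 (SE, unadjusted p = 0.0643, adjusted p = 1.0). For all 9 genes and 3 contrasts in PFC, the intervals lay between -0.47 and 0.85, the widest being those of Foxp2, the least abundant member.

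**Figure D2:**
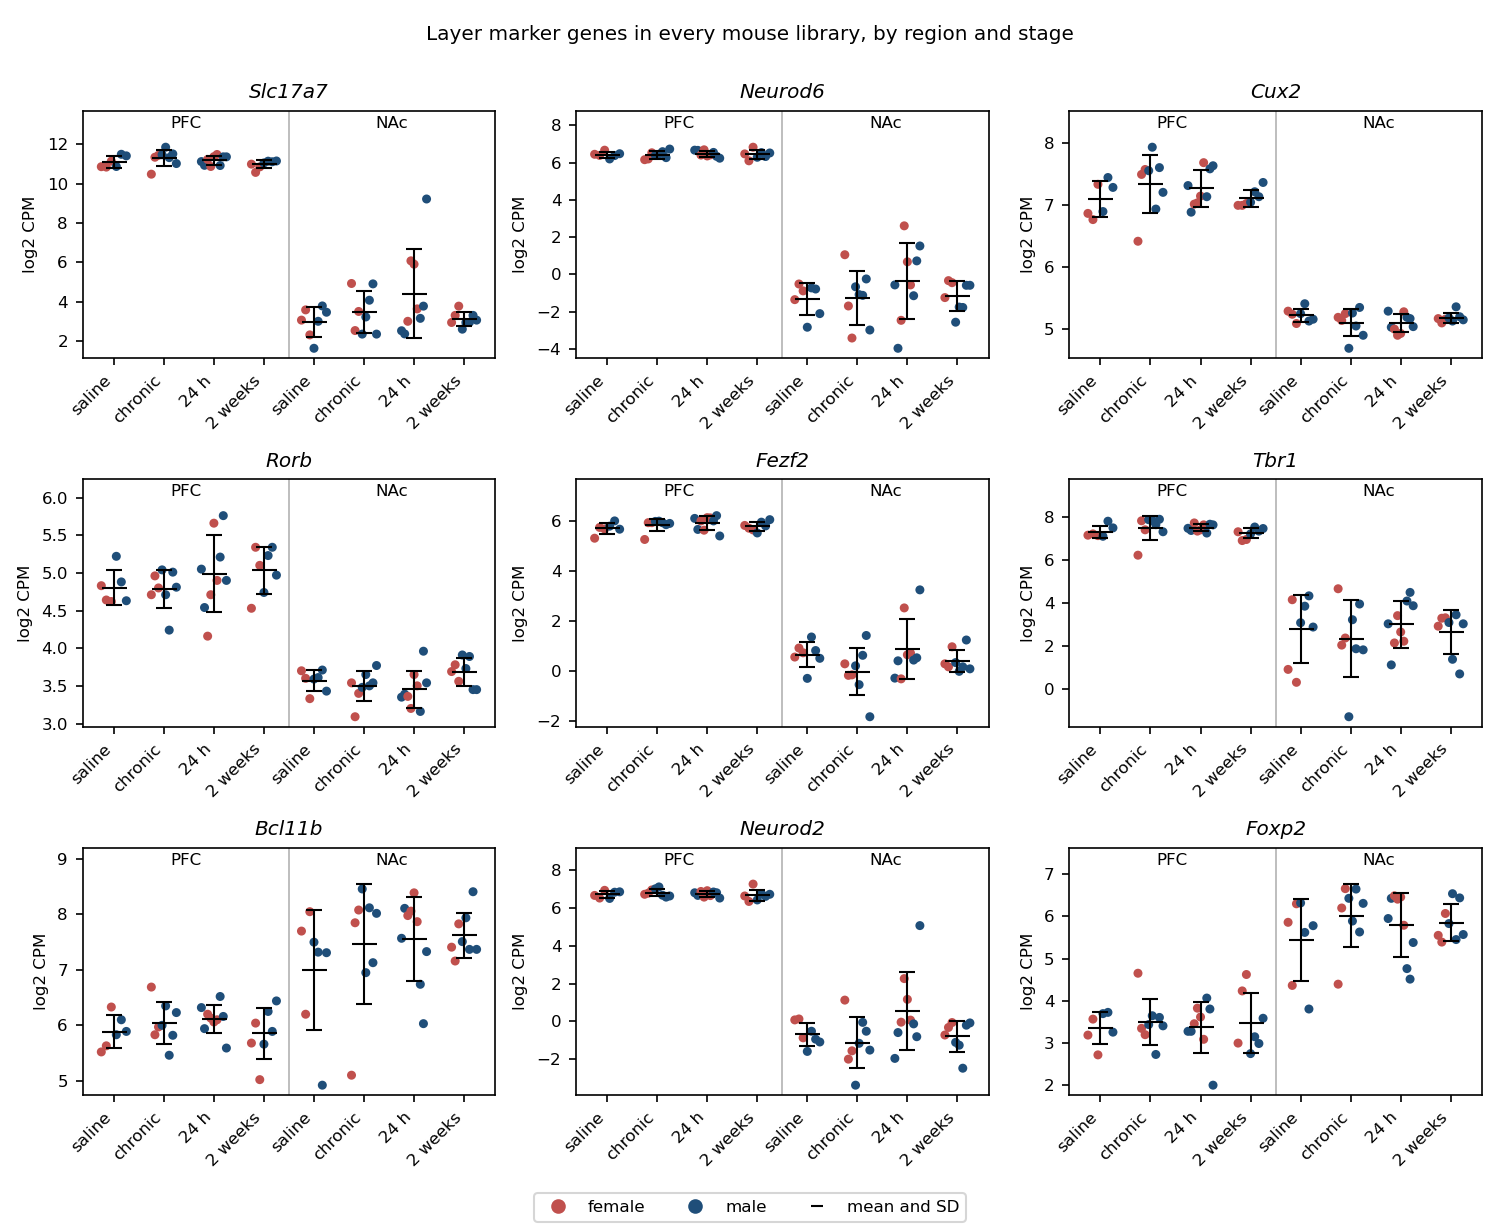
Log2 CPM (prior count of 2) of the 9 genes in all 62 libraries, by region and stage; points are libraries coloured by labelled sex, and bars give the mean and SD of 6 to 9 libraries a group. In PFC the groups overlap for each gene, and in NAc at 24 h the means of Slc17a7 and Neurod2 are drawn up by 3 libraries, number 24 highest.

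In NAc the same contrasts called 0 of 9 members each with edgeR, where 1.69%, 0.163% and 0.00544% of 18382 genes were called under chronic morphine, at 24 h and at 2 weeks. At an unadjusted p under 0.05 there were 0, 3 and 0 members, and 2785, 2218 and 1182 genes in all. DESeq2 called 0, 1 and 0. The 3 members at 24 h were Slc17a7, Neurod2 and Neurod6, the genes with the steepest difference between the regions. Median log2 changes of the members were 0.033, 0.415 and 0.061, against -0.009, -0.008 and 0.001 over all genes tested. The 3 contrasts shared the same 7 saline libraries.

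Slc17a7 ran from 3.04 to 13.8 CPM in saline NAc (median 8.31), from 5.06 to 30.4 under chronic morphine (median 10.3), from 5.11 to 595 at 24 h (median 12.4) and from 6.03 to 13.7 at 2 weeks (median 8.02). The 4 ranges overlapped, and the 24 h group held the 3 highest of all NAc libraries. Its log2 difference from saline at 24 h was 2.95 ± 0.83 (SE, unadjusted p = 0.00133, edgeR adjusted p = 0.146), and in DESeq2 2.96 ± 0.72 (adjusted p = 0.0122). Neurod2 differed by 2.69 ± 0.83 (adjusted p = 0.187) and Neurod6 by 1.90 ± 0.76 (adjusted p = 0.312).

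The 24 h values rested on few libraries. Without number 24 the log2 differences were 1.01 ± 0.46 for Slc17a7, 0.83 ± 0.53 for Neurod2 and 1.55 ± 0.75 for Neurod6. Without number 19 that of Neurod6 was 1.19 ± 0.72. Without numbers 19, 20 and 24 together they were 0.08 ± 0.43, 0.23 ± 0.56 and 0.32 ± 0.76. Those 3 libraries were picked after the data had been seen because they had the highest Slc17a7, so a smaller value without them follows in part from the choice.

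Among the other members in NAc, Fezf2 had log2 differences of -0.59 ± 0.51, 0.68 ± 0.48 and -0.26 ± 0.50 under chronic morphine, at 24 h and at 2 weeks. Cux2 and Rorb were measured most tightly, with differences between -0.14 and 0.12 and SEs from 0.08 to 0.11. Tbr1 had differences between -0.30 and -0.05 with SEs near 0.6, Bcl11b between 0.36 and 0.41 and Foxp2 between 0.20 and 0.45. Bcl11b had medians of 159.5 CPM in saline, 246 under chronic morphine, 234 at 24 h and 176.1 at 2 weeks, within ranges of 30.3 to 265, 34.3 to 351, 65.3 to 335 and 143.02 to 340 CPM. The ranges overlapped throughout. The summed level of the 12 striatal genes had group medians of 3379, 4943, 3823 and 3487 CPM. With a striatal marker score as a covariate edgeR again called 0 of 9 members in each contrast, and Slc17a7 at 24 h had a log2 difference of 3.24 ± 0.80 (adjusted p = 0.0593).

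Whether the stage effects differed between the regions was tested in the fit of all 62 libraries. With edgeR 0 of 9 members were called, where 0.0363% of 19266 genes were; at an unadjusted p under 0.05 there were 3 members and 921 genes, and DESeq2 called 0 members. The 3 were Neurod2 (unadjusted p = 0.000299, adjusted p = 0.303), Slc17a7 (0.00117 and 0.551) and Neurod6 (0.00626 and 0.808). At 24 h the effect in PFC minus that in NAc was -2.69 for Neurod2, -2.89 for Slc17a7 and -1.88 for Neurod6 on the log2 scale, and the same 3 NAc libraries entered this fit.

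Between the sexes as labelled, 0 of 9 members were called with edgeR in PFC, where 0.0334% of genes were, and 0 of 9 in NAc, where 0.0598% were. At an unadjusted p under 0.05 there were 1 member and 815 genes in PFC and 0 members and 880 genes in NAc, and DESeq2 called 0 members in both. Tbr1 in PFC was the 1 member, with a log2 difference of males from females of 0.24 ± 0.11 (SE, unadjusted p = 0.0288, adjusted p = 0.946). It was 0.16 ± 0.08 without number 25 and 0.26 ± 0.11 without number 27. Slc17a7 differed by 0.19 ± 0.09 (adjusted p = 0.946), which was 0.13 ± 0.08 without number 25 and 0.24 ± 0.09 without number 27. For sex by stage edgeR called 0 of 9 in PFC, where 0% of genes were called, and 0 of 9 in NAc, where 0.0544% were. There the unadjusted p was under 0.05 for 0 members in both and for 846 and 1757 genes, and DESeq2 called 0 members in both.

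Of the 26 further projection neuron genes, 0 were called in any stage, sex or interaction contrast with edgeR. At an unadjusted p under 0.05 the NAc contrast at 24 h held 1 of 7 upper-layer, 3 of 11 deep-layer and 2 of 8 many-layer genes, beside 12.1% of all genes tested. Under chronic morphine in PFC it held 0 of 7, 1 of 11 and 0 of 8, beside 7.91% of all genes.

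Single NAc libraries were then placed between the regions. For each gene that was higher in PFC, the position was the CPM above the NAc median as a percentage of the gap to the PFC median. NAc number 24 (male, 24 h) held 595 CPM of Slc17a7, 26.1% of the gap, and 33.5 CPM of Neurod2, 31.2% of the gap. Its Fezf2 was 9.43 CPM (14.2%), its Tbr1 14.7 CPM (4.04%) and its Neurod6 2.83 CPM (2.71%). Cux2 and Rorb lay at or under the NAc median, at -2.8% and -0.23%. The 7 genes thus took different positions within this 1 library, with Neurod2 and Slc17a7 highest, Fezf2 next, and Tbr1, Neurod6, Rorb and Cux2 lowest.

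In the same library, several genes of the many-layer list lay above the 28 NAc libraries left after setting aside numbers 19, 20, 24 and 25. Slc30a3 was at 60.4 CPM against at most 6.22, Nrn1 at 99.9 against 46.3, Lhx2 at 58.1 against 36.2, Neurod1 at 11.3 against 1.61 and Emx1 at 8.6 against 0.6. Otof, an upper-layer gene by its list but lower in PFC than in NAc, was above all 28 as well, at 68.2 CPM. Genes of the claustrum and neighbouring endopiriform nucleus were also above, Nr4a2 at 9.82 CPM against 7.71 and Ntng2 at 21.6 against 11.7, while Gnb4 was within the range. The GABA genes Gad1, Gad2 and Slc32a1 lay below all 28, at 644, 613 and 356 CPM, with the other 4 genes of that list within the range, as did the myelin genes Mbp and Mog and striatal Isl1, at 7.07 CPM. Its summed striatal genes were 1927 CPM. The part of these cell types in the Slc17a7 value was not tested.

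NAc numbers 19 and 20 (females, 24 h) differed from number 24 and from each other. Number 19 had 67.6 CPM of Slc17a7, the highest Neurod6 of the region at 6.05 CPM (6.45% of the gap), 5.71 CPM of Fezf2 and 4.74 CPM of Neurod2. Number 20 had 59.99 CPM of Slc17a7 and 2.17 CPM of Neurod2, with Fezf2 near the median, and the choroid plexus genes Ttr, Folr1 and Kcnj13 were above all 28 other libraries, Ttr at 701 CPM. Over the 29 NAc libraries other than these 3, Slc17a7 ran from 3.04 to 30.4 CPM with a median of 8.34, and Neurod2 from 0.032 to 2.11 CPM.

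**Figure D3:**
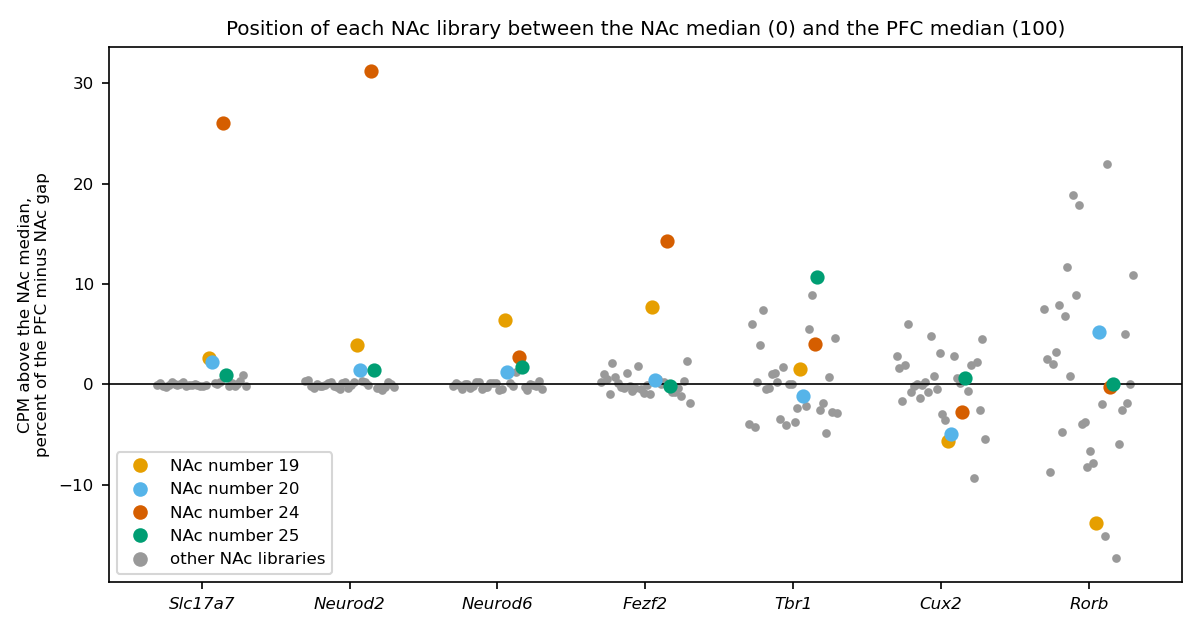
Position of 32 NAc libraries on the gap between the NAc median (0) and the PFC median (100) in CPM, for the 7 genes higher in PFC; each point is a library. Number 24 reaches 26.1% for Slc17a7 and 31.2% for Neurod2 but -2.8% for Cux2, and the scatter of Rorb is wide because its gap is small.

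A separate set of NAc libraries stood out in Bcl11b, Foxp2 and Tbr1. Numbers 6 (male, saline), 25 (female, chronic), 2 (female, saline) and 23 (male, 24 h) had the 4 lowest levels of Bcl11b, at 30.3, 34.3, 73.4 and 65.3 CPM. They also had the 4 lowest of Foxp2, at 13.9, 20.9, 20.4 and 22.8 CPM. Their Tbr1 was the highest of the region, at 20.1, 25.4, 17.8 and 22.6 CPM. Their summed striatal genes were the lowest, at 464, 497, 1060 and 1069 CPM, against a median of 3579. These were the 4 libraries below the highest PFC library in both genes, and number 6 lay below every PFC library in Bcl11b. Their Slc17a7 was 13.8, 30.4, 11.98 and 13.6 CPM, far below that of PFC, and their Cux2 of 34.96 to 37.6 CPM lay near the NAc median.

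In PFC, number 25 (female, chronic) had the lowest Slc17a7 (1426 CPM), Cux2 (85.5 CPM), Fezf2 (38.2 CPM) and Tbr1 (74.9 CPM) of 30 libraries, and the highest Bcl11b (103.5 CPM) and Foxp2 (25.1 CPM). Its Neurod2 (106.1 CPM) lay at the PFC median, and its Rorb (26.1 CPM) and Neurod6 (71.4 CPM) were within the range of the other libraries. Of the 7 genes of the upper-layer list, Lamp5 (55.3 CPM), Rspo1 (5.41 CPM) and Scnn1a (4.11 CPM) were also the lowest of 30 libraries. Cux1, Otof, Calb1 and Rasgrf2 were within the range of the 28 libraries other than numbers 10 and 25. Of the deep-layer list, Nxph4 was above those 28, at 14.5 CPM against at most 7.32, and the other genes were within their range. Of the many-layer list, Neurod1 was within their range and the other genes were below it. Markers of subcortical glutamatergic neurons were the highest in number 25, Slc17a6 (VGLUT2) at 228 CPM and Tcf7l2 at 49.8 CPM, as was Mbp. Of the 7 interneuron and GABA genes, Gad2 was the highest there at 304 CPM, Sst (121.1 CPM) and Vip (13.05 CPM) were the lowest of 30 libraries, Lhx6 (13.7 CPM) was below all but number 10, and Gad1, Slc32a1 and Pvalb were within the range of the 28 libraries other than numbers 10 and 25. The part of these cell types in the member values was not tested. PFC number 10, the smallest library, had the highest Neurod6 (113.5 CPM) and Neurod2 (154.8 CPM) and the lowest Bcl11b (32.3 CPM). Without numbers 10 and 25 together, an alternative added after the data had been seen, 0 members were called in each PFC contrast.

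Finally, the 9 genes were correlated with each other over libraries within each region (log2 CPM, two-sided permutation tests, adjusted over a family of 99 relations). In PFC, 7 of 36 pairs were called, all of them positive. They tied Slc17a7, Cux2, Tbr1 and Fezf2, a glutamate transporter, an upper-layer and 2 deep-layer genes, in all 6 combinations, and Neurod6 with Neurod2. Slc17a7 correlated with Cux2 at r = 0.862 (rho = 0.837) and with Tbr1 at r = 0.859 (rho = 0.860). Each had a permutation p of 1e-05, the smallest that 100000 resamples can give, and an adjusted p of 9e-05. Without the 2 libraries farthest from the Slc17a7 median, the values were 0.786 and 0.846.

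The other PFC pairs were weaker. Cux2 and Tbr1 had r = 0.759 (rho = 0.695, permutation p = 1e-05, adjusted p = 9e-05) and 0.651 without the 2 farthest libraries. Fezf2 and Tbr1 had r = 0.622 (rho = 0.586, permutation p = 0.00031, adjusted p = 0.00162), Slc17a7 and Fezf2 r = 0.561 (rho = 0.579, permutation p = 0.00123, adjusted p = 0.00609), and Cux2 and Fezf2 r = 0.531 (rho = 0.499, permutation p = 0.00253, adjusted p = 0.0119). Without the 2 farthest libraries these 3 were 0.455, 0.455 and 0.397. Neurod6 and Neurod2 had r = 0.461 (rho = 0.398, permutation p = 0.0101, adjusted p = 0.0435), which rested on 2 libraries and was 0.211 without them. Rorb, Bcl11b and Foxp2 had 0 called pairs in PFC. The upper-layer gene Cux2 and the deep-layer gene Tbr1 were thus high in the same PFC libraries. Taken as deviations from stage by sex means, Foxp2 was called, negatively, with Slc17a7 (r = -0.451, adjusted permutation p = 0.0395) and Tbr1 (r = -0.444, adjusted permutation p = 0.0449). Slc17a7 was then also called with Neurod2 (r = 0.462, adjusted permutation p = 0.0366).

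In NAc, 10 of 36 pairs were called, 8 positive and 2 negative. Bcl11b and Foxp2 had r = 0.936 (rho = 0.893, permutation p = 1e-05, adjusted p = 9e-05), and 0.918 without the 2 farthest libraries. Slc17a7, Neurod2, Neurod6 and Fezf2 were tied in all 6 combinations, from r = 0.615 (Neurod6 with Neurod2) to r = 0.867 (Slc17a7 with Neurod2; rho = 0.697, permutation p = 1e-05, adjusted p = 9e-05). Their adjusted permutation p-values ran from 9e-05 to 0.0011. Without the 2 farthest libraries, the 6 ran from 0.447 (Slc17a7 with Fezf2) to 0.653 (Slc17a7 with Neurod2). Tbr1 was negatively related to Bcl11b (r = -0.732, rho = -0.830, permutation p = 1e-05, adjusted p = 9e-05) and to Foxp2 (r = -0.702, rho = -0.765, permutation p = 2e-05, adjusted p = 0.000165). Those became -0.761 and -0.759 without the 2 farthest libraries. Tbr1 and Cux2 were positively related (r = 0.471, rho = 0.337, permutation p = 0.00749, adjusted p = 0.0337), at 0.305 without the 2 farthest. By Pearson's r, none of the 10 joined Slc17a7, Neurod2, Neurod6 or Fezf2 to a member outside that set. By rank, Slc17a7 and Neurod6 were also called with Tbr1 (rho = 0.523 and 0.484, adjusted permutation p = 0.0109 and 0.0236). As deviations from stage by sex means, both were again called with Tbr1 (r = 0.429 and 0.432), and Neurod6 with Bcl11b and Foxp2 (r = -0.448 and -0.481). The adjusted permutation p of these pairs ran from 0.0238 to 0.0455.

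**Figure D4:**
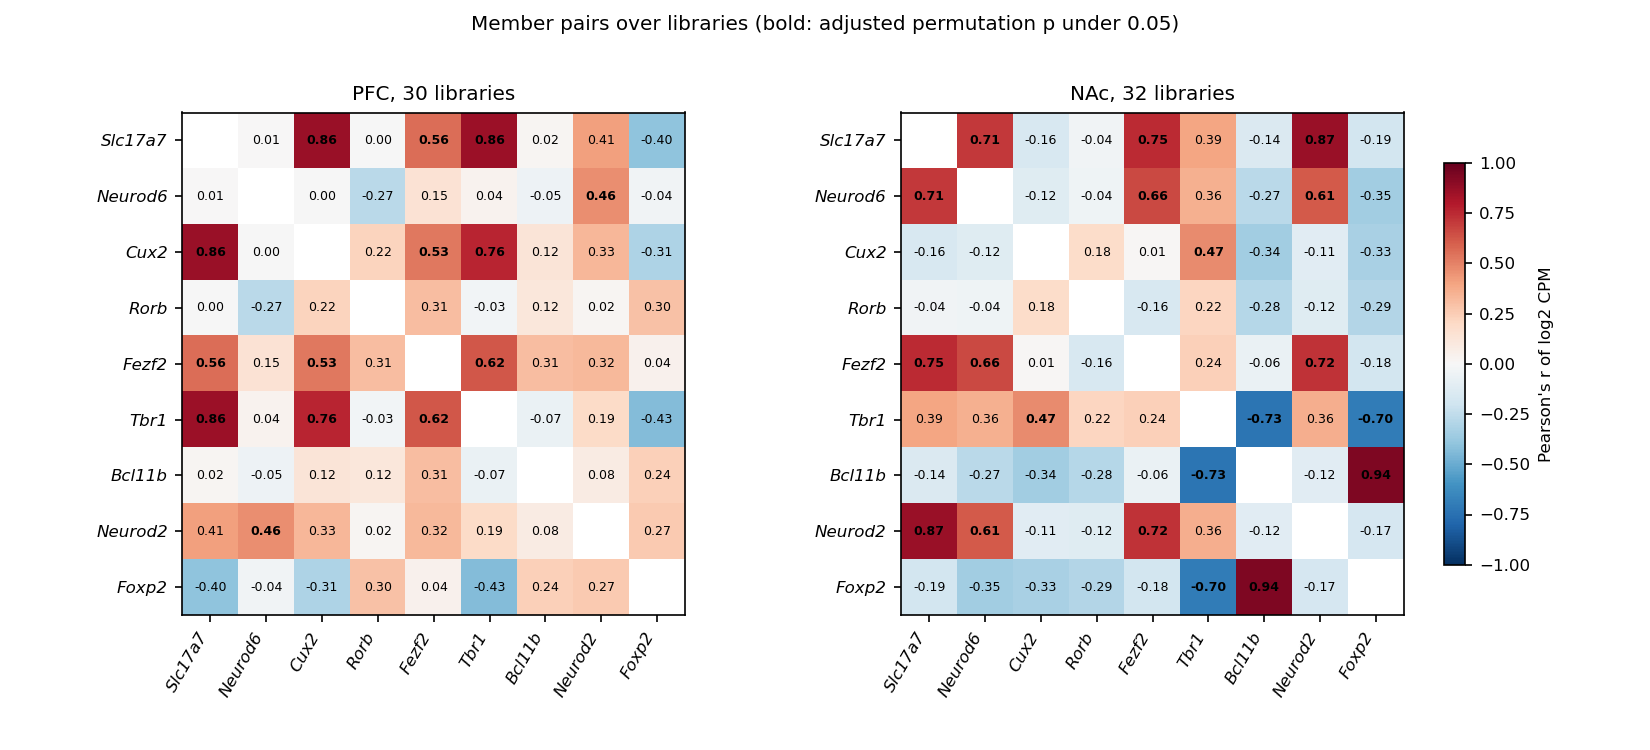
Pearson correlations of log2 CPM between the 9 genes over 30 PFC and 32 NAc libraries; red is positive, blue negative, and bold values have an adjusted permutation p under 0.05. In PFC the called pairs join Slc17a7, Cux2, Fezf2 and Tbr1 and also Neurod6 with Neurod2, while in NAc Slc17a7, Neurod6, Neurod2 and Fezf2 form 1 block, Bcl11b and Foxp2 another, and Tbr1 is negative against the latter.

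The summed striatal genes, none of them a member, followed Bcl11b and Foxp2 in NAc. They correlated with Bcl11b at r = 0.981 (rho = 0.942) and with Foxp2 at r = 0.940 (rho = 0.909), and with Tbr1 at r = -0.732 (rho = -0.800). All 3 had permutation p = 1e-05 and adjusted p = 9e-05, and were 0.962, 0.918 and -0.734 without the 2 farthest libraries. Slc17a7 (r = -0.208, rho = -0.245, permutation p = 0.237, adjusted p = 0.397) and Neurod2 (r = -0.205, rho = -0.105, permutation p = 0.249, adjusted p = 0.404) had no called relation to the sum. As deviations from stage by sex means, Neurod6 (r = -0.467, adjusted permutation p = 0.0276) and Rorb (r = -0.422, adjusted permutation p = 0.0458) were called with it as well. In PFC the striatal sum, led by Ppp1r1b, correlated with Slc17a7 at r = 0.841 (rho = 0.819, permutation p = 1e-05, adjusted p = 9e-05), and 0.812 without the 2 farthest libraries. It correlated there with Tbr1 at r = 0.652 (rho = 0.649, permutation p = 1e-04, adjusted p = 0.000619), with Cux2 at r = 0.648 (rho = 0.611, permutation p = 0.00015, adjusted p = 0.000874) and with Foxp2 at r = -0.455 (rho = -0.450, permutation p = 0.0118, adjusted p = 0.0486), which were 0.688, 0.578 and -0.558 without the 2 farthest. Between same-numbered PFC and NAc libraries, 0 of 9 members had a called correlation, with r from -0.381 (Fezf2) to 0.304 (Rorb) over 30 numbers.

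**Figure D5:**
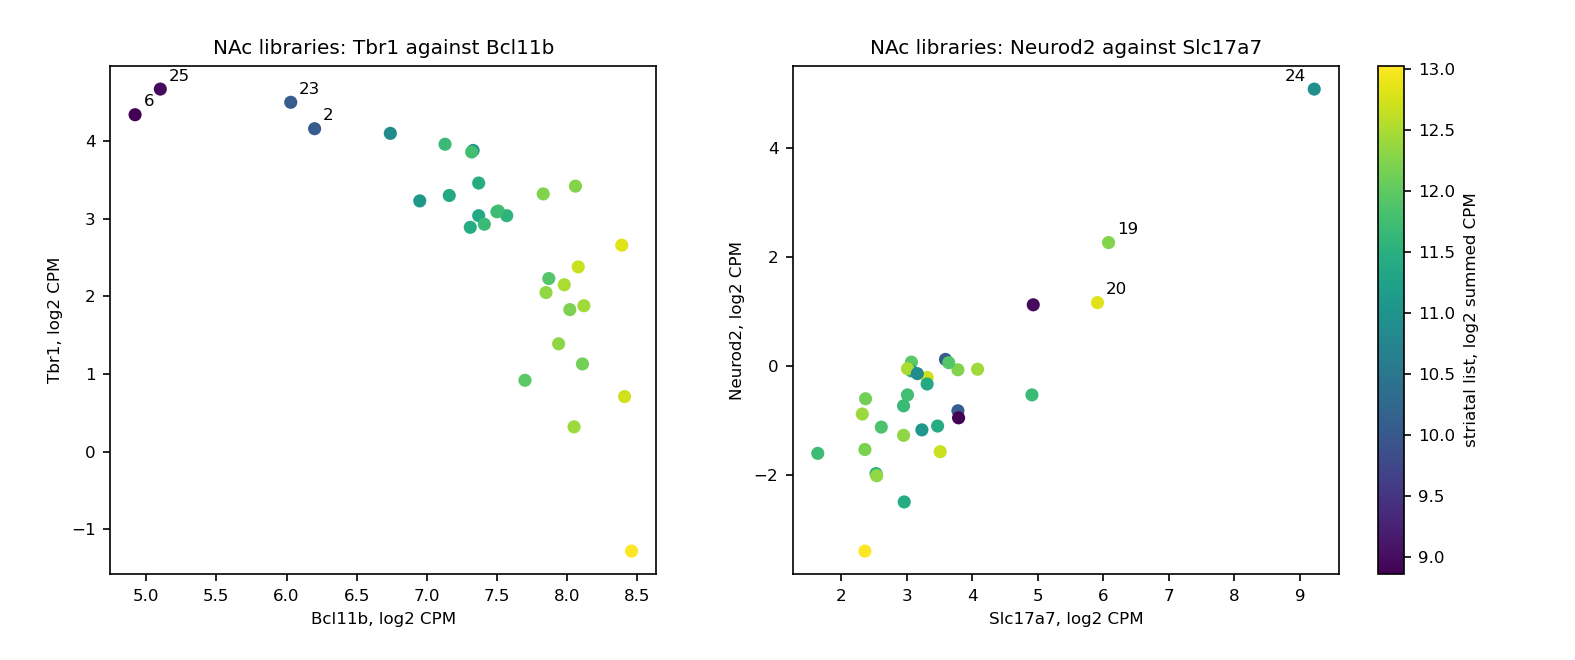
Log2 CPM of Tbr1 against Bcl11b (left) and of Neurod2 against Slc17a7 (right) in 32 NAc libraries, coloured by the log2 summed CPM of 12 striatal genes; numbers name libraries of the text. Tbr1 is highest where Bcl11b and the striatal sum are lowest (numbers 6, 25, 23 and 2), while numbers 24, 19 and 20 extend the Slc17a7 axis, with striatal sums of 1927, 4858 and 7262 CPM.

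Genes whose level followed Slc17a7 most closely were ranked by Pearson's r in each region, as a description. In PFC, over 30 libraries and 12869 genes, they were Adra1d, an adrenergic receptor (0.897), Chrm1, a muscarinic receptor (0.881), Rims4, a protein of the presynaptic active zone (0.878), Tmem132a (0.874) and Lzts1 (0.873). Without PFC number 25 these 5 ran from 0.849 to 0.876. In NAc, over 32 libraries and 13100 genes, they were Cck, a neuropeptide (0.773), Khdrbs3, a splicing factor (0.749), Stx1a, a syntaxin of synaptic release (0.719), Unc5a, a netrin receptor (0.711) and Nptxr, a neuronal pentraxin receptor (0.703). Without NAc number 24 they were 0.491, 0.46, 0.438, 0.25 and 0.192. Each of these 5 genes had its highest NAc level in number 24, with Cck at 98.3 CPM against a median of 9.21 CPM.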

How the data were processed

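Total RNA from punches was sequenced as read pairs of 75 bases, per the labels' protocols. The authors deposited raw counts per gene for 62 mouse libraries. The submitters' processing notes name FastQC, cutadapt, Trimmomatic, HISAT2, STAR and RSEM and the builds GRCm38 and Rnor_6.0, without roles. The annotation and the counting program are not given in the sources used here. Rows for unassigned reads stayed out of totals and tests (median shares: no gene 5.43%, ambiguous 0.832%, low quality 0.334%, unaligned 0.566%, not unique 14.7%). The rat libraries were not used here.

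Positions and exon lengths came from GENCODE M21 (GRCm38). Counts were fitted with edgeR 4.0.16 (R 4.3.3, limma 3.58.1; filterByExpr, TMM, glmQLFit) to stage by sex means per region, or region by stage by sex means over both, and contrasts averaged over the sexes; log2 CPM had a prior count of 2. Adjusted p-values cover all genes tested; the code was tested on simulated data. The members and lists were chosen with earlier results of these data known. Named genes are the members, the 5 genes nearest to Slc17a7 per region (mean log2 CPM of at least 1) and up to 4 called genes a list with the smallest adjusted p; other genes were named after their values were seen. Intervals are 95%. Alternatives were DESeq2 1.42.0, other size factors, no low-count filter, 1 sex alone, saline alone, a striatal score as covariate, a replicate block, and leaving out libraries. Numbers were not treated as pairs in the main fits, because the labels do not say that a number is an animal. Same-numbered libraries of the regions deviated together at r from -0.001 to 0.224 (median 0.073, 8 of 30 over 0.1). These values cannot settle whether same-numbered libraries share an animal.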

Additional observations from a re-analysis of the deposited data

Results flagged for a closer look

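Within groups of 6 to 9 libraries, 8 of 72 combinations of a gene and a group (11.1%) held a library set apart from the rest by a gap that was large for the group's range, where chance gives about 1 in 20. The values are log2 CPM. PFC number 25 (chronic) was lowest in Fezf2 (5.26, next 5.85) and in Tbr1 (6.23, next 7.32), and NAc number 25 was lowest in its group in Bcl11b (5.1, next 6.95) and in Foxp2 (4.39, next 5.63). PFC number 10 (2 weeks), the library with the fewest counts, was highest in Neurod2 (7.27, next 6.75). PFC number 24 (24 h) was lowest in Foxp2 (1.99, next 3.08) and PFC number 30 (chronic) in Rorb (4.24, next 4.71). NAc number 13 (2 weeks) was highest in Cux2 (5.36, next 5.20). Number 25 thus accounts for 4 of the 8 and stood apart in both regions.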

How the results depend on the processing

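Of 1055 values recomputed under alternatives, 1053 were classed as the same, by a rule that differed with the kind of value. Log2 differences had to keep their direction and their side of the threshold. A difference that was not called was therefore the same however far it shrank. That of Slc17a7 at 24 h in NAc counted as the same at 0.08 without numbers 19, 20 and 24, against 2.95. The share classed as the same thus does not measure how stable the sizes were. Counts of called members or pairs had to stay within 1.5 times, and median log2 CPM had to move by less than the SD over libraries. DESeq2 called 1 member at 24 h in NAc in place of 0, Slc17a7 at 2.96; the cause was not tested. Leaving out each library or number in turn, 9 of 9 members were called between the regions and 0 in each other contrast; the log2 differences at 24 h in NAc ran from 1.01 to 3.14 for Slc17a7, 0.83 to 2.85 for Neurod2 and 1.19 to 2.10 for Neurod6, and between the regions from 7.03 to 7.57 for Slc17a7. With the replicate number as a replicate block over the 30 numbers found in both regions, 9 members were called between the regions and 0 by region and stage, and the Slc17a7 difference was 7.60; the block changed no call of a member. By their deviations, 15 of 30 PFC libraries correlated best with the NAc library of their own number, and 23 of 30 within their stage and sex, a hint from the data and not the design. As deviations from stage by sex means, 10 pairs were called in PFC and 15 in NAc, against 7 and 10, and 2 of 9 same-number relations, both negative, against 0. Calls over all genes moved by over 1.5 times. With DESeq2 they were 0.963%, 0.256% and 0.0278% of genes under chronic morphine, at 24 h and at 2 weeks in PFC, 3.76%, 0.718% and 0.163% in NAc, 0.267% and 0.506% for sex by stage and 0.145% for region by stage. Leaving out 1 library gave 0.249% to 0.96% under chronic morphine in PFC, 0.636% to 3.0% in NAc and 0.0159% to 0.267% at 24 h in NAc; 1 sex alone gave as few as 0.089% and 0.0516% under chronic morphine in PFC and NAc. With no filter on low counts 42.2% were called between the regions. Depth limits the low NAc values: Neurod6 and Neurod2 had 0 to 161 and 1 to 1290 counts a library there.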
